A study of Oryza sativa with 16 samples.

Results

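Asparagine carries a large share of the nitrogen that rice moves between organs, and its level in a tissue depends on the enzymes that make it and the enzymes that break it down. Asparagine synthetase moves the amide group of glutamine onto aspartate, with ATP as the energy source, and asparaginase splits asparagine into aspartate and ammonium, which glutamine synthetase can fix again. Rice has a pair of asparagine synthetase genes, of which Os03g0291500 is known as the form of roots fed with ammonium and Os06g0265000 has been described mainly in leaves. The genes described here are these 2 synthetases, which the files name ASN1 and ASN, and the asparaginase gene OsASNase2 (Os04g0650700), 3 of the 37849 genes in the files. They were chosen by name, with earlier results of these data known, and all 3 passed the filter on low counts in roots and in shoots.

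The 16 libraries came from IR64, a high-yielding indica variety, and N22 (Nagina 22), an aus variety known for drought tolerance, as roots and shoots of seedlings at 4 treatments. These were no stress (N+W+), nitrogen stress (N-W+), drought stress (N+W-) and both together (N-W-), all in pots of vermiculite and perlite with ammonium nitrate as the sole nitrogen source. RNA of biological replicates was pooled before library construction, so each combination of genotype, tissue and treatment was 1 library, and differences between 2 libraries had no replicate check. The doses in the labels conflict. The treatment protocol gives 0.4 mM ammonium nitrate for nitrogen stress and 0.08 mM otherwise, and the descriptions of N-W+ give 0.04 mM. The methods of the study instead give 0.08 mM for N- and a far higher dose for N+. Nitrogen is called low (N-) or high (N+) here by group name, in the direction that the methods give. Low water was 10 ml and full water 100 ml a day. The labels give an age of 15 days for W+ plants and 21 days for W- plants, while the methods of the study describe 1 common growth period for all treatments and other water volumes, so whether water and age go together is not settled by the sources used here.

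Exon reads per library ranged from 8272195 to 13675454 in roots and from 2420338 to 11379518 in shoots. The lowest was N22 shoots under N-W+. Exon reads were 8.50% of mapped fragments (recovered from the RPKM) in that library and 19.1% to 33.3% in the other shoot libraries. That library thus differed in more than depth, for a reason that was not tested. Trimmed mean of M values (TMM) factors, which scale libraries so that most genes do not differ, ranged from 0.912 to 1.15 in roots and from 0.677 to 1.41 in shoots, so in shoots a difference in CPM (the exon reads of a gene per 1000000 exon reads of its library) and a TMM-scaled log2 difference can differ in size. The tissue labels matched their markers. The 3 leaf markers, for the light-harvesting protein CAB1R, the small subunit of Rubisco and Rubisco activase, summed to between 9332 and 63921 CPM in shoots and to between 1.81 and 42.3 CPM in roots. The 3 root markers, RCc3 and the silicon transporters LSI1 and LSI2, summed to between 979 and 3376 CPM in roots and to between 6.15 and 22.9 CPM in shoots.

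In IRGSP-1.0 coordinates, Os03g0291500 lies on the minus strand of chromosome 3, from 10120289 to 10124384, with 13 exons and 2238 bases of exon. Its 3′ end overlaps by 84 bases that of OsTBL8 (Os03g0291200) on the other strand. Os06g0265000 lies on the minus strand of chromosome 6, from 8758936 to 8765680, with 14 exons and 2264 bases of exon, and no other gene of the files overlaps it. All exon reads of both synthetases were mapped uniquely in every library. OsASNase2 lies on the plus strand of chromosome 4, from 33161539 to 33164512, with 8 exons in 4 transcripts, and 2889 of its 2974 bases are exon in at least 1 of them. A gene of 306 bases on the other strand, Os04g0650750, lies wholly inside it, from 33161558 to 33161863. No exon read of Os04g0650750 was unique, and between 74.1% and 78.5% of those of OsASNase2 were, so the count of OsASNase2 depends on how reads shared by the 2 genes were assigned. Without strand in the counting, reads of the 2 genes cannot be told apart.

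In roots, both OsASNase2 and Os06g0265000 were higher at low nitrogen in both genotypes, while Os03g0291500 was highest under N+W- and had no nitrogen difference that passed the test. OsASNase2 rose 6.23-fold and Os06g0265000 rose 3.57-fold from high to low nitrogen, over 4 libraries each. Neither the water supply nor the genotype gave a difference that passed the test in any of the 3 genes. In bulk tissue, fewer cells that express a gene and less RNA per cell cannot be told apart.

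**Figure D1:**
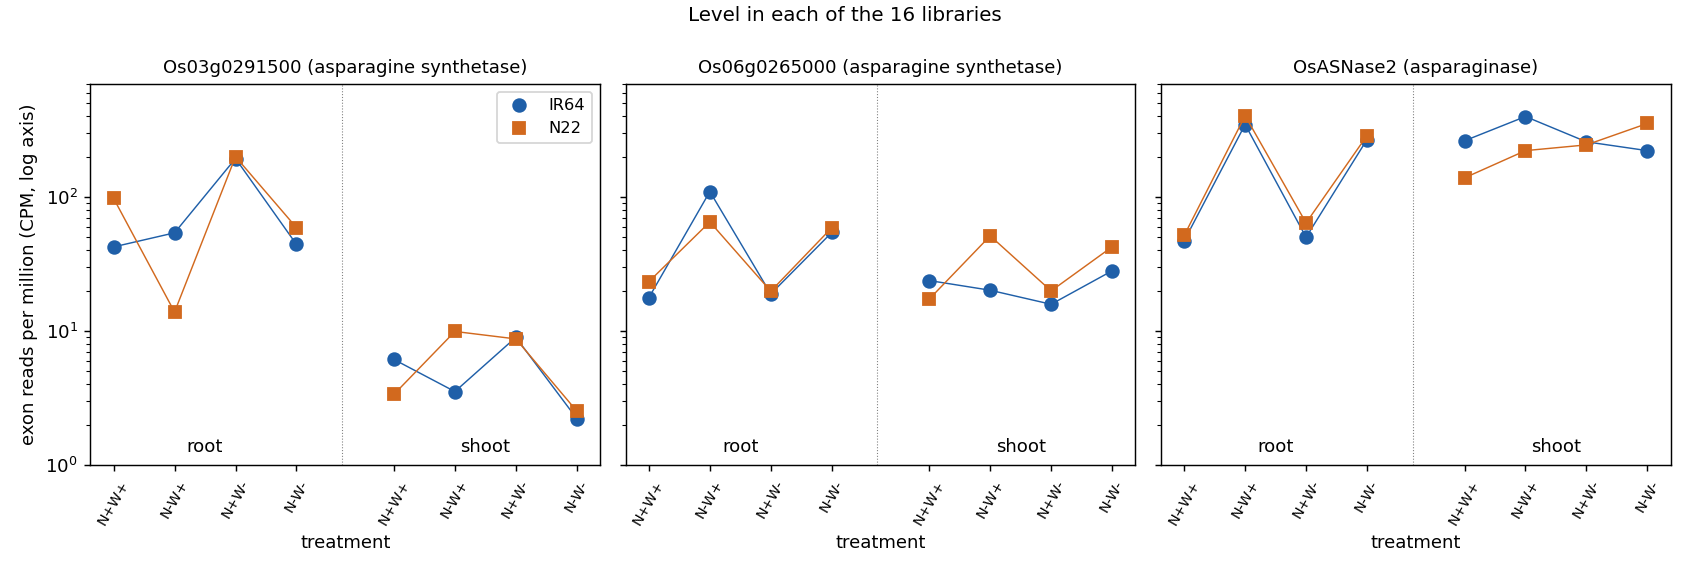
CPM (log axis) of the 3 genes in each of the 16 libraries, by treatment, with roots on the left and shoots on the right of each panel, circles for IR64 and squares for N22; each point is 1 library and lines only join libraries of a genotype and tissue. In roots, OsASNase2 lay between 268 and 403 CPM at low nitrogen and between 47.1 and 64.0 CPM at high nitrogen, and Os03g0291500 was below 10 CPM in all shoot libraries.

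For OsASNase2, the IR64 root libraries held 47.1 CPM under N+W+, 347 under N-W+, 50.03 under N+W- and 268 under N-W-. The N22 root libraries held 51.6, 403, 64.0 and 287 CPM in the same order. All 4 libraries at low nitrogen stood above all 4 at high nitrogen, and within a nitrogen supply the 2 genotypes lay close together. The log2 difference between low and high nitrogen over both genotypes was 2.64 ± 0.20 (SE), with a Benjamini-Hochberg adjusted p of 0.000916 in the quasi-likelihood test of edgeR. Of all genes tested in roots, 4.66% were called for nitrogen, and 2 of the 3 genes here were. This call held under each of the other settings tried, with log2 differences of 2.55 to 2.74 when 1 library was left out. Summing the reads of OsASNase2 with those of Os04g0650750, a choice made after seeing the data, gave 2.57.

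The increase of OsASNase2 was present with and without drought. Under N-W+ it was 6.89-fold above N+W+ (log2 2.78 ± 0.26, SE, adjusted p = 0.00472, edgeR), under N-W- 5.38-fold above N+W+ (log2 2.43, adjusted p = 0.00946) and under N-W- 5.63-fold above N+W- (log2 2.49, adjusted p = 0.00630). Under N+W- it was at a log2 difference of -0.07 from N+W+ (adjusted p = 0.979). The treatments have 2 libraries each, and a single library could end these calls in edgeR. Without N22 N+W+ the adjusted p was 0.0646 for N-W+ and 0.102 for N-W-, without IR64 N+W+ it was 0.0760 for N-W-, and without IR64 N+W- it was 0.0525 for N-W- against N+W-. The log2 differences stayed between 2.24 and 2.90 in all of these comparisons with N+W+ when 1 library was left out.

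Os06g0265000 was also highest in roots under N-W+ and next under N-W-, in both genotypes. The IR64 root libraries held 17.7 CPM under N+W+, 110 under N-W+, 18.9 under N+W- and 54.3 under N-W-. The N22 root libraries held 23.3, 65.1, 19.8 and 58.9 CPM. Again the 4 libraries at low nitrogen, from 54.3 CPM upward, stood above the 4 at high nitrogen, which reached 23.3 CPM. The log2 difference for nitrogen was 1.84 ± 0.20 (SE, adjusted p = 0.00323, edgeR) and was called under each setting tried, with a range of 1.67 to 1.95 when 1 library was left out. IR64 under N-W+ was the highest library, at 110 CPM against 65.1 CPM in N22.

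By treatment, Os06g0265000 rose 3.80-fold under N-W+ (log2 1.93, adjusted p = 0.0166, edgeR). Under N-W- it was 2.63-fold above N+W+, at an adjusted p of 0.0572, which missed the threshold in edgeR and passed it in DESeq2 (0.000564), with an adjusted p over all other settings between 0.000564 and 0.0742. Against N+W-, it rose 3.35-fold under N-W- (log2 1.74, adjusted p = 0.0255, edgeR). The call for N-W+ was lost without IR64 N+W+ (adjusted p = 0.139), IR64 N-W+ (0.0842) or N22 N+W+ (0.0946). The call for N-W- against N+W- was lost without any 1 of the 4 libraries it compares, at adjusted p of 0.0772 to 0.186. In the joint tests, the share of all genes called in roots was 2.83% for N-W+, 1.62% for N-W- and 2.47% for N-W- against N+W-; of the 3 genes, 2, 1 and 2 were called.

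Os03g0291500 had another order of treatments. In IR64 roots it was at 42.4 CPM under N+W+, 54.0 under N-W+, 193 under N+W- and 44.2 under N-W-, while the N22 libraries were at 97.5, 13.8, 200 and 59.0 CPM. The 2 N+W- libraries were the highest of the 8, and the genotypes parted under N-W+, where N22 had its lowest root level and IR64 did not. Low- and high-nitrogen libraries overlapped, since IR64 under N+W+ was lower than 3 of the 4 libraries at low nitrogen. The log2 difference between low and high nitrogen was -1.50 ± 0.43 (SE, adjusted p = 0.105), 2.82-fold lower at low nitrogen, and was not called in edgeR. DESeq2 called it (adjusted p = 0.00322), and so did edgeR without IR64 N-W+ (log2 -2.04, adjusted p = 0.0142), while the adjusted p over the other settings ran from 0.00322 to 0.158. For N-W- against N+W- its log2 difference in roots was -1.74 ± 0.63 (SE, adjusted p = 0.213 in edgeR, 0.0434 in DESeq2), and edgeR passed it without IR64 N-W+ (0.0375) or N22 N-W+ (0.0369).

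The comparison of each stress library with N+W+ of its own genotype shows where the genotypes differed. The ratios are TMM-scaled log2 values, and their 95% binomial intervals cover counting error only. Os03g0291500 under N-W+ was at -2.81 in N22 roots (interval -3.06 to -2.58) and at 0.10 in IR64 roots (-0.08 to 0.28). Under N+W- it was at 1.86 in IR64 and 0.86 in N22. Under N-W- it was at 0.02 in IR64 and -0.83 in N22. For N-W- against N-W+ it was at 1.98 in N22 and -0.08 in IR64. The N22 value rests on the same N-W+ library as the -2.81, with 168 reads, so it is no separate difference. The term for genotype by nitrogen was at -1.39 ± 0.80 (SE) with an adjusted p of 1 for this gene in edgeR, so the difference between genotypes did not pass a test over their libraries. That term, fitted with 2 residual degrees of freedom, was called for 0% of all genes in roots, so the missing call says little.

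**Figure D2:**
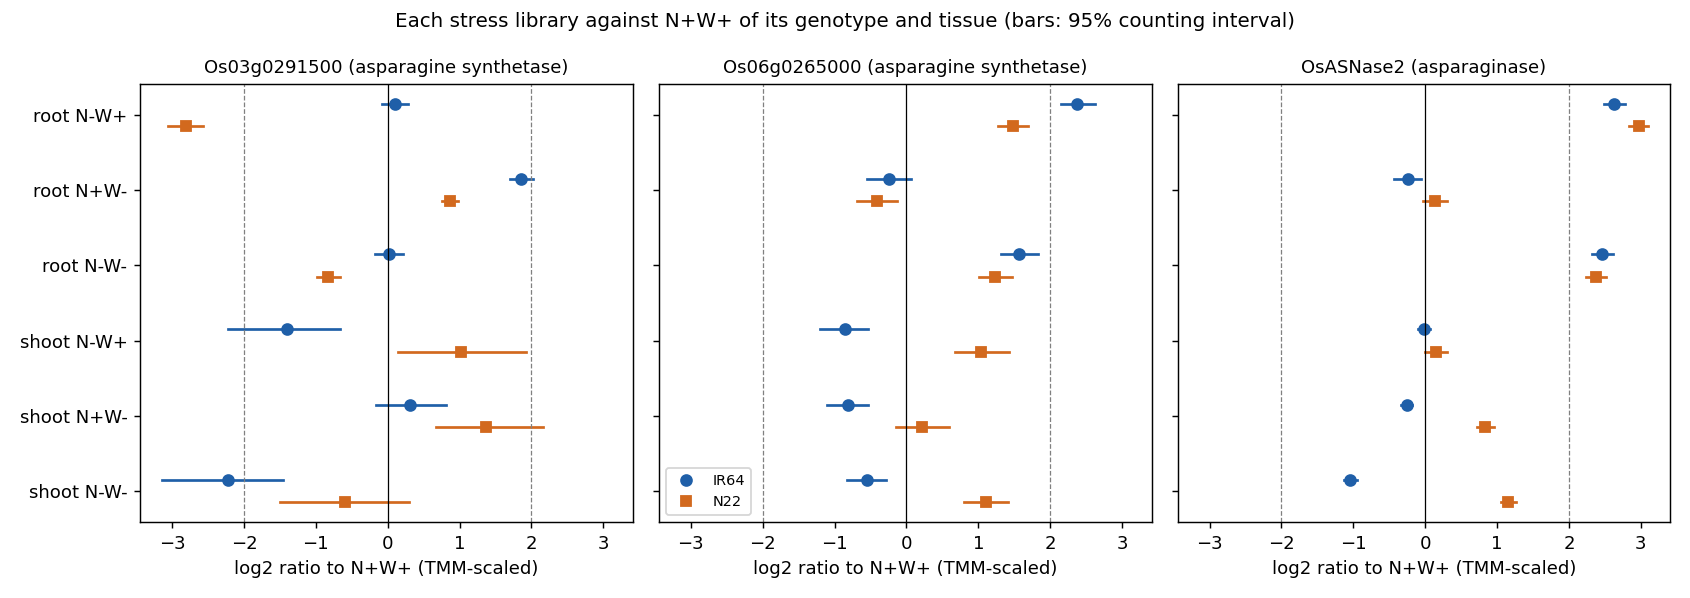
TMM-scaled log2 ratio of each stress library to the matching N+W+ library for the 3 genes, circles for IR64 and squares for N22, with bars for the 95% binomial interval of the reads and dashed lines at the fold rule of 2. In roots OsASNase2 was beyond 2 under N-W+ and N-W- in both genotypes, and Os03g0291500 was at -2.81 under N-W+ in N22 and at 0.10 in IR64.

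Single pairs of libraries, first each stress against N+W+, were also read by a fold rule, which asks for a log2 ratio above 2 or below -2 and for 1 CPM or more in 1 library of the pair. Under N-W+, 2 of the 3 genes were past it in IR64 roots (OsASNase2 at 2.63 and Os06g0265000 at 2.38) and 2 in N22 roots (OsASNase2 at 2.97 and Os03g0291500 at -2.81), where 7.61% and 7.95% of all genes were past it. Under N-W-, OsASNase2 alone was, at 2.46 in IR64 roots and 2.37 in N22 roots, beside 6.97% and 6.17% of all genes. Under N+W- no gene of the 3 was past it in either root, beside 5.55% in IR64 and 2.54% in N22. In shoots, Os03g0291500 in IR64 under N-W- was past it, at -2.22 from 17 reads against 58, where 25.7% of all genes were past it. In the other shoot comparisons with N+W+ none of the 3 was, beside 24% of all genes in IR64 and 27.8% in N22 under N-W+, 9.11% in IR64 and 10.1% in N22 with N+W-, and 15.1% for N22 with N-W-. For N-W- against N+W-, OsASNase2 was past the rule at 2.71 in IR64 roots and 2.23 in N22 roots, beside 10.8% and 6.15% of all genes. In IR64 shoots Os03g0291500 was past it at -2.54 from 17 reads against 102, beside 16.8% of all genes, and in N22 shoots none of the 3 was, beside 10.5%. Scaled by library totals, the shoot ratios of Os03g0291500 in IR64 were -1.44 for N-W- against N+W+ and -1.99 for N-W- against N+W-, neither past the rule. For N-W- against N-W+ none of the 3 was past it, beside 7.8% in IR64 roots, 4.15% in N22 roots, 4.05% in IR64 shoots and 12.3% in N22 shoots.

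Water supply alone gave no call. In roots, Os03g0291500 was at a log2 difference of 0.98 ± 0.42 (SE) at low against full water, with an unadjusted p of 0.0487 and an adjusted p of 0.914 in edgeR. Os06g0265000 was at -0.44 and OsASNase2 at -0.21. Over all genes, edgeR called 0% for water in roots, with 1320 genes at an unadjusted p under 0.05, and DESeq2 called 55. In shoots edgeR also called 0%, with 726 at an unadjusted p under 0.05, and DESeq2 called 7. In the comparison of N+W- with N+W+, 0.00824% of the genes were called in roots and 0% in shoots. There were 1765 genes in roots and 2647 in shoots at an unadjusted p under 0.05, and DESeq2 called 347 and 641. Os03g0291500 was at 1.23 in roots (adjusted p = 0.750) and 0.68 in shoots (adjusted p = 0.709). In roots, its exon reads numbered 387 under N+W+ against 2007 under N+W- for IR64, and for N22 they numbered 1011 against 1924.

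In shoots, none of the 3 genes passed the test for nitrogen, although 13.5% of all genes did. OsASNase2 was high throughout, at 262 CPM under N+W+, 398 under N-W+, 258 under N+W- and 221 under N-W- for IR64, and in the same order at 139, 221, 244 and 353 CPM in N22. IR64 was lowest under N-W- and N22 highest there, and low- and high-nitrogen libraries overlapped. Its log2 difference for nitrogen was -0.03 ± 0.38 (SE, adjusted p = 0.966, edgeR), and it turned to 0.43 when libraries were scaled by their totals, to 0.33 by mapped fragments and to 0.07 with the antisense gene added, all uncalled.

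Os06g0265000 in shoots was at 23.8, 20.1, 15.8 and 28.1 CPM in IR64 and at 17.3, 51.2, 19.9 and 42.4 CPM in N22, by treatment in that order too. The 2 N22 libraries at low nitrogen were the highest of the 8, and the IR64 libraries at low nitrogen overlapped those at high nitrogen. In TMM-scaled CPM the lead was small, with N22 at 36.2 under N-W+ and 37.8 under N-W-, beside 35.1 in IR64 under N+W+. The log2 difference for nitrogen was 0.32 ± 0.36 (SE, adjusted p = 0.599, edgeR). Os03g0291500 was near the lower end of what these libraries resolve, with 58, 20, 102 and 17 reads for IR64, and for N22 23, 24, 57 and 23. These are 6.13, 3.53, 8.96 and 2.22 CPM in IR64 and 3.37, 9.92, 8.72 and 2.53 CPM in N22. As in roots, N+W- was high in both genotypes, while N22 under N-W+ rests on 24 reads of the shallowest library. The log2 difference for nitrogen was -1.29 ± 0.60 (SE, adjusted p = 0.193), and that for N-W- against N+W- was -2.28 ± 0.65 (adjusted p = 0.156 in edgeR, 0.0431 in DESeq2). Of all genes in shoots, 13% were called under N-W+, 6.83% under N-W- and 1.43% for N-W- against N+W-, and none of the 3 genes was.

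The terms for differences between genotypes and for departures of the dual stress from the sum of the single stresses were not called for any of the 3 genes. For N22 against IR64, 11.1% of all genes were called in roots and 6.21% in shoots, and the 3 genes had adjusted p values from 0.403 to 0.997. Genotype by nitrogen and genotype by water were called in edgeR for 0% of genes in both tissues, with 216 to 613 genes at an unadjusted p under 0.05, and DESeq2 called between 4 and 21. Those edgeR counts are lower than the threshold alone would give without any difference, so a missing call for these terms says little. Nitrogen by water was called for 0.00412% of genes in roots and 0% in shoots. DESeq2 called 483 and 155 for it, and 2140 genes in shoots had an unadjusted p under 0.05. The smallest adjusted p among the 3 genes was 0.546, for Os03g0291500 in shoots, at a log2 term of -2.06 ± 0.91 (SE).

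Between tissues, the 2 synthetases differed from each other. Os03g0291500 was 11.5-fold lower in shoots than in roots (log2 -3.52 ± 0.46, SE, adjusted p = 0.000149, edgeR with the 8 pairs of root and shoot as blocks). Its root libraries ran from 13.8 to 200 CPM, with a median of 56.5, and its shoot libraries from 2.22 to 9.92 CPM, with a median of 4.83, so the tissues did not overlap. The call held under each setting tried, with log2 differences of -3.88 to -3.36 when 1 library was left out. Os06g0265000 ran from 17.7 to 110 CPM in roots (median 38.8) and from 15.8 to 51.2 CPM in shoots (median 22.0), and its log2 difference was -0.29 ± 0.35 (SE, adjusted p = 0.541). OsASNase2 ran from 47.1 to 403 CPM in roots (median 166) and from 139 to 398 CPM in shoots (median 251). Its log2 difference of 1.21 ± 0.57 (SE) had an adjusted p of 0.113 in edgeR and 0.0279 in DESeq2, and it passed without N22 root N-W+ (0.0391) or N22 shoot N-W+ (0.0361). Of all genes tested, 43.4% were called between the tissues, and 1 of the 3 genes was.

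The nitrogen difference of OsASNase2 was smaller in shoots than in roots. The term for tissue by nitrogen was -2.84 ± 0.56 (SE, adjusted p = 0.0182, edgeR), beside 6.25% of all genes called. Scaling by mapped fragments ended this call (log2 -2.65, adjusted p = 0.0534). Leaving out 1 library gave terms of -3.15 to -2.47 and ended it without IR64 root N+W+, IR64 root N-W-, N22 root N-W+, IR64 shoot N+W+, IR64 shoot N+W-, IR64 shoot N-W- or N22 shoot N-W+, with adjusted p of 0.050004 to 0.0728. For Os06g0265000 the term was -1.61 ± 0.47 (SE, adjusted p = 0.0723 in edgeR, 0.0243 in DESeq2), and for Os03g0291500 it was 0.13 ± 0.89 (adjusted p = 0.949).

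Ratios of the genes within a library do not depend on how libraries are scaled. Per base of exon, Os06g0265000 made up between 8.80% and 29.3% of the reads of both synthetases in high-nitrogen roots and between 49.7% and 82.3% in low-nitrogen roots. In shoots it made up between 63.6% and 83.5% at high nitrogen and between 83.6% and 94.3% at low nitrogen. Low- and high-nitrogen libraries did not overlap in either tissue, although in shoots the nearest libraries were at 83.5% and 83.6%. These were N22 under N+W+ and N-W+, with only 23 and 24 reads of Os03g0291500, so their order is not sure. The log2 ratio of Os06g0265000 to Os03g0291500 averaged 0.87 ± 1.00 (SD, n = 4) at low and -2.52 ± 1.03 (SD, n = 4) at high nitrogen in roots, a difference of 3.39 (exact 2-sided permutation p = 0.0286, adjusted over 6 tests 0.0343). In shoots it averaged 3.14 ± 0.84 (SD, n = 4) at low and 1.56 ± 0.70 (SD, n = 4) at high nitrogen, a difference of 1.57 (exact permutation p = 0.0286, adjusted 0.0343). Most of this shoot difference came from the W- libraries. From high to low nitrogen, the ratio went from 0.80 to 3.64 in IR64 and from 1.17 to 4.05 in N22 at low water. At full water it went from 1.94 to 2.49 in IR64 and from 2.342 to 2.353 in N22. A p of 0.0286 is the smallest that 70 arrangements of 8 libraries can give. These arrangements, here and for OsASNase2 below, did not keep libraries of the same genotype and water supply paired. A matched test has fewer arrangements and was not run. The ratio was higher in shoots than in roots in all 8 pairs, by 3.17 on average (exact permutation p = 0.00781 over all sign changes, the smallest they can give, adjusted 0.0343). In shoots the call for nitrogen was lost without IR64 N+W+, IR64 N+W-, IR64 N-W+, IR64 N-W-, N22 N+W- or N22 N-W-, at adjusted p of 0.0686 to 0.137. Leaving out a library makes the groups unequal and changes the arrangements of the test, so these losses cannot show dependence on those libraries. The remaining libraries at low and high nitrogen still did not overlap.

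**Figure D3:**
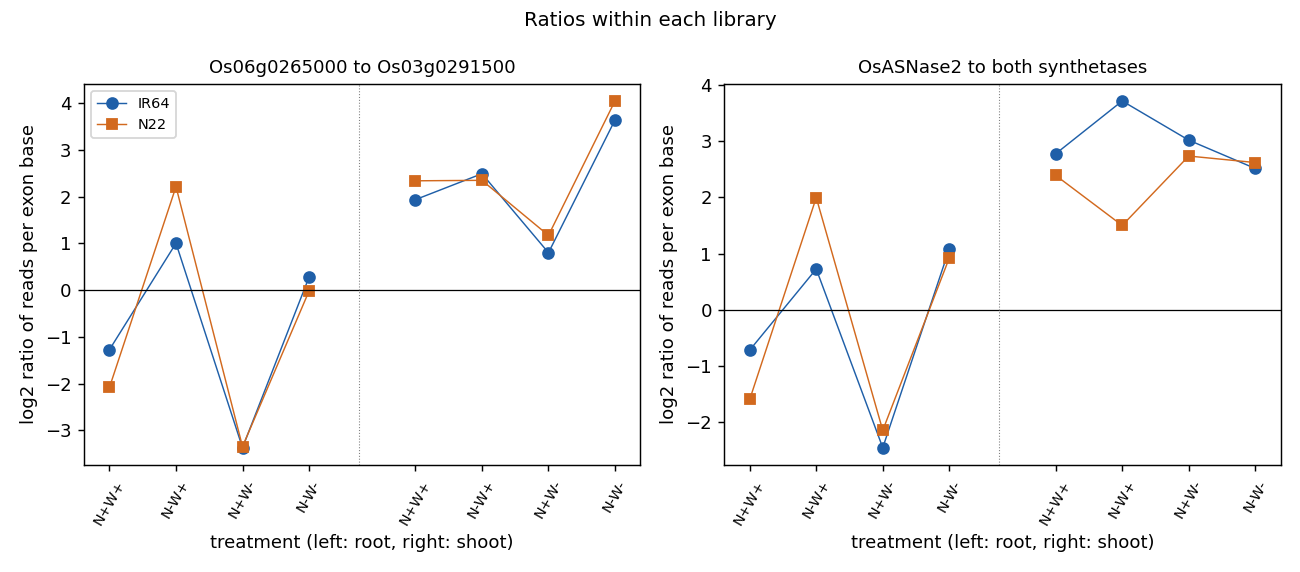
Log2 ratio of reads per exon base within each library, of Os06g0265000 to Os03g0291500 on the left and of OsASNase2 to the sum of both synthetases on the right, by treatment and tissue, circles for IR64 and squares for N22; each point is 1 library. In roots both ratios were above those of every high-nitrogen library in all 4 low-nitrogen libraries, and in shoots the ratio with OsASNase2 overlapped between nitrogen supplies.

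The ratio of OsASNase2 to both synthetases together was higher at low nitrogen in roots, and in shoots no difference passed the test. It averaged 1.18 ± 0.56 (SD, n = 4) at low and -1.73 ± 0.76 (SD, n = 4) at high nitrogen in roots, a difference of 2.91 (exact permutation p = 0.0286, adjusted 0.0343). In shoots it averaged 2.59 ± 0.91 (SD, n = 4) at low and 2.73 ± 0.26 (SD, n = 4) at high nitrogen (exact permutation p = 0.743, adjusted 0.743). It was higher in shoots than in roots by 2.93 on average over 8 pairs (exact permutation p = 0.0156, adjusted 0.0343), in every pair but that of N22 under N-W+, which was at 1.502 in shoots and 1.998 in roots. The lowest root value, -2.45, was IR64 under N+W-, where Os03g0291500 was high, and in N22 roots under N-W+ the ratio reached 1.998. Because the exon length of OsASNase2 joins 4 transcripts, the absolute level of this ratio is less sure than its differences between libraries.

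The reads of the 3 genes also differed in where they fell. In roots, reads that crossed an exon junction were between 39.3% and 52.3% of the exon reads of Os03g0291500 and between 33.5% and 55.2% of those of Os06g0265000. For OsASNase2 they were between 4.42% and 8.58% in roots and between 1.49% and 7.18% in shoots. Intron reads of Os06g0265000 were between 14.5% and 17.7% of its gene reads in low-nitrogen roots and between 8.33% and 13.7% in high-nitrogen roots. For Os03g0291500 they were between 6.97% and 11.3% at low and between 0.414% and 4.44% at high nitrogen in roots, without overlap. These shares rest on 15 to 94 intron reads a library at low and 8 to 41 at high nitrogen. The intron share over all genes was not computed, so a shift of whole libraries was not checked for either synthetase. Intron and exon reads of OsASNase2 cannot be separated in this way, because nearly its whole length counts as exon. How many of the reads counted for OsASNase2 came from spliced transcripts was not tested.

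The gene on the other strand inside OsASNase2 held many of the reads of that stretch. Os04g0650750 had 237 reads under N+W+, 1245 under N-W+, 215 under N+W- and 1197 under N-W- for the roots of IR64, and 338, 2858, 317 and 1287 in N22 roots. Its reads were thus high and low in the same root libraries as those of OsASNase2, and since all of them were shared they are no separate measurement. On uniquely mapped reads alone, OsASNase2 had 334, 3668, 395 and 2190 reads in the IR64 roots, while the N22 roots had 411, 3729, 457 and 1815, with the same order of treatments.

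Genes around asparagine were taken from a list of 15, which holds the other asparaginase, the glutamine synthetases, glutamate synthases and glutamate dehydrogenases, and 4 genes listed as aspartate aminotransferases, of which the sources used here annotate 2. OsGLT1, at 0 to 16 reads a library in roots and 0 to 2 in shoots, and OsGDH3, at 0 to 4 and 0 to 3, were too low to test, and so was OsGS1_2 in shoots. For nitrogen in roots, 0 of 13 tested genes rose and 1 fell in edgeR, beside 4.66% of all genes called, with a median log2 difference of -0.16 beside 0.02 over all genes. DESeq2 called 2 higher and 3 lower. In shoots 1 of 12 rose and 3 fell, beside 13.5% of all genes, with a median of -0.59 beside 0.01 over all genes, and DESeq2 called 1 higher and 5 lower. For water, 0 were called in either tissue by edgeR, and DESeq2 called OsGDH2 lower in roots. The median in shoots was -0.11 when libraries were scaled by their totals, where 1 gene rose and 1 fell.

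OsASNase1 (Os03g0597600), the other asparaginase, rose at low nitrogen in shoots. It was 0.83 ± 0.20 (SE) higher on the log2 scale at low nitrogen in roots, which missed the threshold (adjusted p = 0.0542, edgeR) but passed it in DESeq2 (0.00165), and in edgeR with library totals (0.0338), mapped fragments (0.0150) or unique reads (0.0474). In shoots it rose by 1.60 ± 0.23 (SE, adjusted p = 0.00655, edgeR), under each setting tried. The term for tissue by nitrogen was 0.65 ± 0.35 (SE, adjusted p = 0.297, edgeR), and it passed with library totals (log2 1.28, adjusted p = 0.0359), so a difference of its nitrogen response between tissues depended on the scaling. In shoots its libraries ran from 10.6 to 20.7 TMM-scaled CPM at high and from 41.4 to 51.2 at low nitrogen, without overlap. Between tissues it was at a log2 difference of -2.38 in shoots against roots (adjusted p = 1.24e-05, edgeR).

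OsGDH2, a glutamate dehydrogenase, fell at low nitrogen in both tissues with TMM scaling, and in shoots the call was lost under other settings. In roots the log2 difference was -1.28 ± 0.21 (SE, adjusted p = 0.0167, edgeR), and the call was lost without N22 N+W+ (0.0710) or N22 N-W+ (0.0736). In shoots it was -1.18 ± 0.32 (SE, adjusted p = 0.0457), and -0.71 with library totals (adjusted p = 0.117), -0.92 with mapped fragments (0.266) and -1.08 after thinning (0.0507), all uncalled. Of the 8 libraries of shoots, only leaving out N22 N-W- kept this call (0.00920). OsGLT2, a glutamate synthase, fell in shoots (log2 -2.81 ± 0.61, SE, adjusted p = 0.0242, edgeR), a call that was kept when N22 N+W- or N22 N-W- was left out and lost without any other library (0.0624 to 0.0967). Os06g0548000, which no source used here annotates, was lower in shoots as well (log2 -1.35, adjusted p = 0.0215, edgeR), but not past the threshold with library totals (-0.88, adjusted p = 0.0637) or mapped fragments (-1.03, 0.204), nor without any library but IR64 N-W+ or N22 N-W- (0.0540 to 0.0945). No glutamine synthetase was called for nitrogen in either tissue by edgeR. OsGLN2, the plastid form, was at -1.79 in roots (adjusted p = 0.0829 in edgeR, 0.00327 in DESeq2) and at -2.12 in shoots (0.0630 in edgeR, 0.00125 in DESeq2), so DESeq2 called it lower in both, and edgeR did in shoots on unique reads (0.0452) and after thinning (0.0458). Under N-W+ against N+W+ in shoots, the joint test called GLN1, OsGLN2, OsGLT2 and OsGLU lower and OsASNase1 higher, and with library totals GLN1 was not called.

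**Figure D4:**
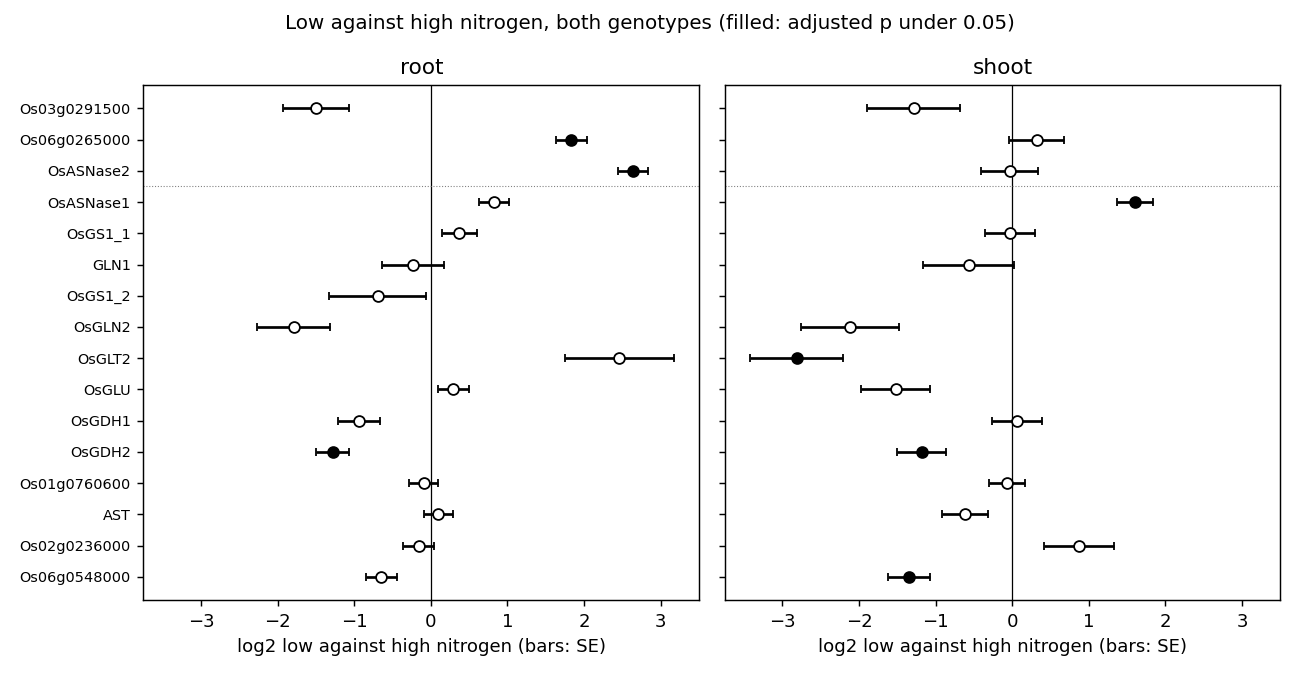
Log2 difference between low and high nitrogen in roots (left) and shoots (right) over both genotypes for the 3 genes, above the dotted line, and for the tested genes of the list, with bars for the SE and filled circles where the adjusted p of edgeR was under 0.05. Os06g0265000 and OsASNase2 were called in roots, at 1.84 and 2.64, and neither was in shoots.

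The genes whose pattern over 8 libraries was most like that of each gene were found by Pearson's r of log2(TMM-scaled CPM + 1), centred within each genotype, in the tissue where the gene had the higher mean CPM. These values describe 8 libraries of 2 genotypes and 4 treatments, with no test. For Os03g0291500 in roots, against 15009 genes, they were PRX49, a class III peroxidase (r = 0.987), OsENODL19, an early nodulin-like gene (0.981), Os01g0618700 (0.979), Os02g0689000 (0.979) and OsAGP22, an arabinogalactan protein gene (0.977). For Os06g0265000 in roots they were Os01g0362100 (0.991), the NAC transcription factor genes NAC5 (0.989) and ONAC061 (0.987), Os03g0815900 (0.986) and OsRH12, of the RNA helicase family (0.985). OsASNase2 came at rank 48 for Os06g0265000, with r = 0.965, among 116 genes over 0.95. The 2 synthetases had r = -0.70 with each other in roots. For OsASNase2 in shoots, against 14817 genes, they were Os01g0175000 (0.970), OsFbox561 (0.967), OsPP2C34, of the protein phosphatase 2C family (0.956), Os12g0568700 (0.955) and Os05g0557200 (0.947), and the next with a symbol was OsC3H14 (0.947).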

How the data were processed

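The authors sequenced poly(A) RNA pooled from biological replicates, trimmed the reads (sickle), and used the CLC Genomics Workbench to map them with relaxed settings to IRGSP-1.0 with RAP-DB genes; the submitters' processing notes also name CASAVA. The counts deposited by the authors are whole reads per gene with no normalization. The RPKM values deposited by the authors are per kb of exon and 1000000 mapped fragments, and the TPM values deposited by the authors are per exon base scaled to a common sum; neither entered a main result. Because N22 and IR64 differ from the Nipponbare reference, levels between genotypes may carry mapping differences.

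Exon counts were tested in edgeR 4.0.16 (R 4.3.3, limma 3.58.1) by quasi-likelihood with robust estimation, TMM scaling, filterByExpr and Benjamini-Hochberg adjustment over all genes, called at 0.05. In a tissue, genotype plus treatment (3 residual degrees of freedom) and genotype plus nitrogen plus water (4) were fitted over 8 libraries, and interaction terms with 2 or 3. The tissue fits used all 16 libraries in blocks of genotype and treatment (7, or 6 with tissue by nitrogen). The genotypes serve as the only replication of a treatment. Pair ratios used a prior count of 0.5. Alternatives were DESeq2 1.42.0, other scaling, no filter, unique or whole-gene reads, thinning to the shallowest library and leaving out each library; scaling by mapped fragments, recovered from the RPKM, and adding the reads of the antisense gene were chosen after seeing the data. The scripts were tested on simulated data. The genes and lists were chosen with earlier results of these data known. Named genes were the 3 genes, list members called for nitrogen, and the 5 genes of highest r (with the 3 highest that carry a symbol) among genes of at least 5 CPM. OsGLN2, GLN1, OsGLU, OsGLT1, OsGDH3 and OsGS1_2 fall outside that rule and were named after their values were seen. Patterns for other enzymes of aspartate use were not applied, because no descriptions were at hand.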

Additional observations from a re-analysis of the deposited data

Results flagged for a closer look

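The nitrogen difference of OsASNase2 was smaller in shoots than in roots by 2.84 on the log2 scale (shoot minus root -2.84, adjusted p = 0.0182 in the edgeR test of tissue by nitrogen). It was 2.64 in roots and -0.03 in shoots, and the shoot value turned to 0.43 with library totals. The call for tissue by nitrogen ended in 7 of 16 fits with 1 library left out. It also ended with scaling by mapped fragments (adjusted p = 0.0534, edgeR).

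Several shoot ratios had opposite signs in the 2 genotypes, with 95% counting intervals that left out 0 on both sides. These differences rest on 1 library per condition and were not tested as pairs. The genotype terms of edgeR were not called for any of the genes, and its genotype interaction terms were called for 0% of all genes in shoots. For Os03g0291500, N-W+ against N+W+ was at -1.39 in IR64 and 1.01 in N22 (log2), 2.41 apart. For Os06g0265000, the same comparison was at -0.86 and 1.04, 1.90 apart, and N-W- against N+W+ was at -0.55 and 1.10, 1.66 apart. For OsASNase2, N+W- against N+W+ was at -0.26 in IR64 and 0.84 in N22, 1.09 apart. Its ratio of N-W- to N+W+ was at -1.04 and 1.16, 2.20 apart, and that of N-W- to N+W- at -0.78 and 0.32, 1.10 apart. N-W- against N-W+ was at -1.02 and 1.01, 2.03 apart. IR64 shoots under N+W+ and N22 shoots under N-W+ had the lowest and highest TMM factors, 0.677 and 1.41. Scaled by library totals, the IR64 ratio of Os06g0265000 for N-W- against N+W+ turned to 0.24, so its genotypes no longer had opposite signs. The other opposite signs remained, with IR64 values nearer 0. The counting intervals of the IR64 values for Os06g0265000 under N-W+ and OsASNase2 under N+W- then included 0. For Os03g0291500 under N-W+ the values were -0.78 and 1.53, for Os06g0265000 under N-W+ -0.24 and 1.56, for OsASNase2 under N+W- -0.026 and 0.82 and under N-W- -0.24 and 1.35, and for its ratios of N-W- to N+W- -0.22 and 0.53 and of N-W- to N-W+ -0.85 and 0.67.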

How the results depend on the processing

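The calls of OsASNase2 and Os06g0265000 for nitrogen in roots and of Os03g0291500 between tissues were kept under every other setting run, and 0 called differences changed sign. Other calls changed as follows, with the log2 difference and its comparison; the causes were not tested. With DESeq2, Os06g0265000 was at 1.40 (N-W- against N+W+ in roots, called) and -1.54 (tissue by nitrogen, called), Os03g0291500 was at -1.73 (N-W- against N+W- in roots, called), -1.50 (nitrogen in roots, called) and -2.32 (N-W- against N+W- in shoots, called) and OsASNase2 was at 1.20 (shoot against root, called). Without a filter, Os06g0265000 was at 1.39 (N-W- against N+W+ in roots, called). On unique reads, Os06g0265000 was at 1.40 (N-W- against N+W+ in roots, called). On whole-gene reads, Os06g0265000 was at 1.48 (N-W- against N+W+ in roots, called). Thinned to the shallowest library, Os06g0265000 was at 1.41 (N-W- against N+W+ in roots, called). Scaled by mapped fragments, Os06g0265000 was at 1.55 (N-W- against N+W+ in roots, called) and OsASNase2 was at -2.65 (tissue by nitrogen, lost). Without the block of genotype and treatment, OsASNase2 was at 1.26 (shoot against root, called) and Os06g0265000 was at -1.63 (tissue by nitrogen, called).

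Uncalled log2 differences changed sign as follows. Scaled by library totals, OsASNase2 was at 0.20 (N+W- against N+W+ in roots), 0.051 (genotype by water in roots), -0.033 (N-W- against N-W+ in shoots), 0.23 (N-W- against N+W- in shoots) and 0.43 (nitrogen in shoots) and Os03g0291500 was at 0.39 (N-W+ against N+W+ in shoots) and -0.25 (genotype by water in shoots). Scaled by mapped fragments, OsASNase2 was at 0.11 (N+W- against N+W+ in roots), 0.40 (N-W- against N+W- in shoots), 0.33 (nitrogen in shoots) and 0.13 (nitrogen by water in shoots), Os03g0291500 was at 0.35 (water in shoots) and -0.55 (N22 against IR64 in shoots) and Os06g0265000 was at 0.48 (water in shoots) and -0.31 (N22 against IR64 in shoots). On unique reads, Os06g0265000 was at 0.0098 (N22 against IR64 in roots) and Os03g0291500 was at -0.016 (N22 against IR64 in shoots). Thinned to the shallowest library, Os06g0265000 was at 0.014 (N22 against IR64 in roots), OsASNase2 was at -0.0091 (N-W- against N-W+ in shoots) and Os03g0291500 was at -0.012 (N22 against IR64 in shoots) and -0.10 (genotype by water in shoots). With antisense reads added, OsASNase2 was at 0.051 (genotype by nitrogen in roots), -0.043 (N-W- against N-W+ in shoots) and 0.074 (nitrogen in shoots). With DESeq2, Os03g0291500 was at -0.0062 (N22 against IR64 in shoots). With DESeq2 size factors, Os03g0291500 was at -0.031 (N22 against IR64 in shoots). Without a filter, Os03g0291500 was at -0.014 (N22 against IR64 in shoots). On whole-gene reads, Os03g0291500 was at -0.037 (N22 against IR64 in shoots).

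With 1 library left out, log2 differences that changed sign or call ranged as follows. For OsASNase2 they were 2.66 to 2.90 (N-W+ against N+W+ in roots), -0.24 to 0.10 (N+W- against N+W+ in roots), 2.24 to 2.59 (N-W- against N+W+ in roots), 2.32 to 2.66 (N-W- against N+W- in roots), -0.44 to 0.29 (genotype by nitrogen in roots), -0.37 to 0.34 (genotype by water in roots), -0.44 to 0.73 (N-W+ against N+W+ in shoots), -0.32 to 0.86 (N+W- against N+W+ in shoots), -0.84 to 0.84 (N-W- against N+W+ in shoots), -0.90 to 0.78 (N-W- against N-W+ in shoots), -1.11 to 0.56 (N-W- against N+W- in shoots), -0.35 to 0.26 (nitrogen in shoots), -0.16 to 0.46 (water in shoots), -1.17 to 0.50 (nitrogen by water in shoots), 0.87 to 1.57 (shoot against root) and -3.15 to -2.47 (tissue by nitrogen). For Os06g0265000 they were 1.55 to 2.27 (N-W+ against N+W+ in roots), 1.17 to 1.64 (N-W- against N+W+ in roots), 1.60 to 1.89 (N-W- against N+W- in roots), -0.11 to 0.16 (N22 against IR64 in roots), -0.051 to 0.47 (genotype by water in roots), -0.52 to 0.20 (nitrogen by water in roots), -0.68 to 0.88 (N-W+ against N+W+ in shoots), -1.08 to 0.48 (N+W- against N+W+ in shoots), -0.53 to 1.03 (N-W- against N+W+ in shoots), -0.38 to 0.73 (N-W- against N-W+ in shoots), -0.39 to 0.27 (water in shoots), -0.12 to 0.50 (N22 against IR64 in shoots), -0.18 to 0.93 (genotype by water in shoots), -0.33 to 1.23 (nitrogen by water in shoots) and -1.84 to -1.26 (tissue by nitrogen). For Os03g0291500 they were -1.13 to 0.41 (N-W- against N+W+ in roots), -0.17 to 2.12 (N-W- against N-W+ in roots), -1.97 to -1.55 (N-W- against N+W- in roots), -2.04 to -1.19 (nitrogen in roots), -0.34 to 0.47 (N22 against IR64 in roots), -0.41 to 1.48 (genotype by water in roots), -1.49 to 0.80 (nitrogen by water in roots), -1.08 to 0.70 (N-W+ against N+W+ in shoots), -0.78 to 0.35 (water in shoots), -0.67 to 0.46 (N22 against IR64 in shoots), -0.050 to 3.08 (genotype by nitrogen in shoots), -1.45 to 1.58 (genotype by water in shoots) and -0.62 to 0.64 (tissue by nitrogen). In shoots, the nitrogen difference of the within-library ratio of Os06g0265000 to Os03g0291500 ranged from 1.27 to 1.83, and that of OsASNase2 to both synthetases from -0.52 to 0.22.

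Over all genes, DESeq2 called more for nitrogen (2252 against 1132 in roots, 5185 against 3088 in shoots), for N-W+ (1829 against 688 and 5050 against 2975), for N-W- (1238 against 393 and 3789 against 1566), for N-W- against N+W- (1852 against 600 and 1633 against 327), for N22 against IR64 in shoots (2763 against 1424) and for tissue by nitrogen (3141 against 1355, and 2789 without the block). On unique reads, N-W- gave 636 and N-W- against N+W- 1024 in roots and 552 in shoots, and the last was 616 without a filter. Mapped fragments gave 3501 for N-W- and 1522 for N-W- against N+W- in shoots, and library totals 2277 for tissue by nitrogen. In shoots, 62.0% of nitrogen calls were higher with TMM, 84.6% with library totals and 82.7% with mapped fragments; in roots 34.1% were, and 58.6% with mapped fragments. The share of calls that were higher, with TMM, library totals and mapped fragments in turn, was 19.9%, 31.2% and 60% for N-W+ in roots, 58.6%, 81.2% and 72.6% for N-W+ in shoots, 24.7%, 28.4% and 35.6% for N-W- in roots, 63.3%, 83.8% and 90.9% for N-W- in shoots, 48.2%, 35.0% and 46.0% for N-W- against N+W- in roots, 62.1%, 75.2% and 84.0% for N-W- against N+W- in shoots, 49.2%, 45.8% and 28.1% for N22 against IR64 in roots, 40.9%, 61.4% and 20.8% for N22 against IR64 in shoots, 49.3%, 39.3% and 24.3% for shoot against root and 71.6%, 91.7% and 88.7% for tissue by nitrogen. Library totals moved the median nitrogen difference of all genes in shoots to 0.48, mapped fragments to 0.26, and in roots mapped fragments to 0.23. Of 380 recomputed pair ratios, 112 left their counting interval under another setting and 0 past the fold rule changed sign. A minimum of 5 CPM in the fold rule lowered the share of all genes past it by over 1.5 times for N+W- (to 3.31% in IR64 roots, 0.981% in N22 roots, 6.04% in IR64 shoots and 6.15% in N22 shoots), for N-W- in IR64 roots (to 4.45%) and for N-W- against N-W+ in IR64 roots (4.27%), N22 roots (2.15%) and IR64 shoots (1.37%). The labels number no replicates, so none could be paired by number; genotype was a term within a tissue, and root and shoot of a condition were paired between tissues. Depth limits Os03g0291500 in shoots, with 17 to 102 reads a library.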
